A study of Mus musculus with 5 samples.

Results

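The nuclear genes for the subunits of the mitochondrial respiratory chain and ATP synthase were compared between neural stem cells (NSCs) and STO cells. Genes were taken by symbol: Nduf subunits for complex I, Sdh for complex II, Uqcr for complex III, Cox4 to Cox8 for complex IV and Atp5 for complex V, with FPKM (fragments per kilobase of transcript, scaled to the mapped fragments of the sample) summed per symbol and sample. This gave 85 genes of the 24843 symbols in the tables: 38 for complex I, 4 for complex II, 8 for complex III, 18 for complex IV and 17 for complex V. Of these, 84 were protein-coding and 1, Ndufs5-ps, was a transcribed pseudogene. Another 20 symbols that fit the rule, mostly pseudogenes, had no row in the tables.

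The study examined the chromatin structure of female germline stem cells against other mouse cell types, with RNA sequencing (RNA-seq) of 2 NSC samples and 3 STO samples among its data. NSCs were primary cells from embryonic cortex, labelled C57BL/6 and passages 5 to 8, grown as adherent monocultures on poly-ornithine and laminin with EGF, bFGF, heparin and B27. STO cells are a line of SIM mouse embryonic fibroblasts used as feeders, also labelled C57BL/6, past passage 30, and grown in high-glucose medium with serum, so cell type, medium and time in culture cannot be told apart in the comparison. No genotype change or drug treatment was given for either group, and nothing stated that the replicates came from separate cultures, so p-values measure only the spread between these samples.

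Each respiratory complex is a set of proteins in the inner mitochondrial membrane. Complexes I and II pass electrons from NADH and succinate to coenzyme Q, complex III passes them on to cytochrome c, and complex IV reduces oxygen. Complexes I, III and IV pump protons, and complex V, the ATP synthase, lets them flow back to make ATP. Mitochondrial DNA encodes some of the core subunits. The other subunits come from nuclear genes, among them those described here, and are imported. Neural stem and progenitor cells are known for a glycolytic metabolism that turns to oxidative phosphorylation as neurons form.

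The markers went with the labels. Sox2, a neural stem cell transcription factor, was at 308 and 276 FPKM in NSCs and Fabp7, a radial glia lipid carrier, at 2783 and 3041, and each was listed at 0 in every STO sample. Nes, the intermediate filament of neural progenitors, was at 176 and 169 FPKM in NSCs and at most 0.0724 in STO cells. The 6 fibroblast markers summed to between 1352 and 1462 FPKM in STO cells and to at most 5.12 in NSCs. NSC samples also held glial transcripts: the 4 astrocyte markers, Gfap among them, summed to 70.4 to 71.4 FPKM against at most 0.432 in STO cells, and Mbp, a myelin gene, was at 83.4 and 88.3 FPKM against at most 0.0722. The 4 markers of the oligodendrocyte lineage summed to 153 and 156 FPKM in NSCs and to between 345 and 356 in STO cells, where Pdgfra alone, also a fibroblast gene, was at 344, 355 and 344. The 5 neuronal markers summed to 118 FPKM in each NSC sample and to between 12.3 and 12.8 in STO cells. Markers of microglia, endothelium and muscle each summed to under 1 FPKM in every sample. The part of glial or neuronal cells in the differences below was not tested. In such bulk samples fewer cells of a type and less RNA per cell cannot be told apart.

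Promoters of the subunit genes often carry sites for NRF1 and for ETS factors such as GABP, regulators of nuclear genes for mitochondrial proteins. Of the members, 68 had a RefSeq promoter window of 250 bases before to 50 bases after the start (GRCm38.p6), and 20 of these (29.4%) held the letters GCGCANGCG (NRF1) on either strand, against 15.8% of 9800 genes tested and 7.03% of all 27025 promoters. The letters CCGGAAG (ETS) stood in 17 of the 68 member promoters, against 20.2% of the genes tested and 9.93% of all promoters. For AAGATGGCG (YY1) the shares were 10.3%, 3.66% and 1.64%. Any of these motifs stood in 36 of the 68 member promoters (52.9%), against 34.6% of the genes tested and 16.5% of all promoters. A match of letters is a description and not a measured binding site. Windows are shown for 3 genes that were higher in NSCs, for a complex I subunit (Ndufb4, chr16:37654319-37654618), a complex III subunit (Uqcr11, chr10:80406772-80407071) and the ATP synthase c subunit (Atp5g2, chr15:102670998-102671297), and for Ndufa8 (chr2:36049289-36049588), which did not differ past the threshold. All lie on the minus strand and are written 5′ to 3′ along the gene, with the matches to these motifs in capitals.
Ndufb4: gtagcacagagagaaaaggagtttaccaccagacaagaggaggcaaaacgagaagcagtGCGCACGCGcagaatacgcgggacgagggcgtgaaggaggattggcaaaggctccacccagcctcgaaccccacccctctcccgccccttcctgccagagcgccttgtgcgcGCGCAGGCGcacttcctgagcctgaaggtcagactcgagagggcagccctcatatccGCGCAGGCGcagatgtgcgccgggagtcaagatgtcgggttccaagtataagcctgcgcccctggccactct
Uqcr11: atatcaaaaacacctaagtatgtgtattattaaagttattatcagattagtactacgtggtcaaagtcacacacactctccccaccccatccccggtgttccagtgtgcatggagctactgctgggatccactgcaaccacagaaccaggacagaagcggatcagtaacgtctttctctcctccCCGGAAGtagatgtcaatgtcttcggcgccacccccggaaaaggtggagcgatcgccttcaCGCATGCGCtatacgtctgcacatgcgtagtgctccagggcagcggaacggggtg
Atp5g2: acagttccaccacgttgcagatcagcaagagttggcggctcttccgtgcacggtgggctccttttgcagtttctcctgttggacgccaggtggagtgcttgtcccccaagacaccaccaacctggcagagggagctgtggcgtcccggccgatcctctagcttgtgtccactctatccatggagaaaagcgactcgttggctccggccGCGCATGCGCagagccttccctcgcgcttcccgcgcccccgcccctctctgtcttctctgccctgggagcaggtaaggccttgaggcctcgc
Ndufa8: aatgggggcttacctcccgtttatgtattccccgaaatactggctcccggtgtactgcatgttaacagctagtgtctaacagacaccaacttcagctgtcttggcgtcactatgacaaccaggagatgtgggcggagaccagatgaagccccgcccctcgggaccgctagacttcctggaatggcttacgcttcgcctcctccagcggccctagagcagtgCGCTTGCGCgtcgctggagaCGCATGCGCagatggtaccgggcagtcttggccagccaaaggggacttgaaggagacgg
Ndufb4 held NRF1 letters at 3 places, Uqcr11 an ETS and an NRF1 match, and Atp5g2 a run that matched NRF1 on both strands. Each window shown held a match, so they do not stand for all members. Among members with larger differences, Ndufc2, Ndufb3 and Cox7c held none, and Ndufs5 and Ndufc1 held 1 each. Ndufa8 held 2 NRF1 matches. Over the members, NRF1 letters stood in 28.1% of the 64 promoters of genes higher in NSCs and in 29.4% of all 68. Whether the letters go with the differences was not tested.

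Subunit genes of all 5 complexes were higher in NSCs. Summed over the 85 genes, the level was 18425 and 19890 FPKM in the NSC samples and 8906, 7974 and 9227 FPKM in the STO samples, and the groups did not overlap. The means were 19157 ± 1036 FPKM (SD, n = 2) and 8702 ± 651 (SD, n = 3), a 2.2-fold higher sum in NSCs. As a share of all FPKM in a sample, the genes took 4.31% ± 0.209 in NSCs and 2.21% ± 0.124 in STO cells.

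Of the 79 members that passed the filter (a mean of at least 1 FPKM in either group), 75 were higher in NSCs, 1 was lower and 3 did not pass the test (limma on log2(FPKM + 1), adjusted p under 0.05 over all genes tested). Among all 12277 genes tested, 43.7% were higher in NSCs and 41.9% lower. The difference was at least 1 on the log2 scale for 48 members, against 21.3% of all genes tested. The median difference on the log2(FPKM + 1) scale was 1.14 over the 79 members and 0.023 over all genes tested. These counts describe genes that share a sum and a set of samples, and no test was made over the list.

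**Figure D1:**
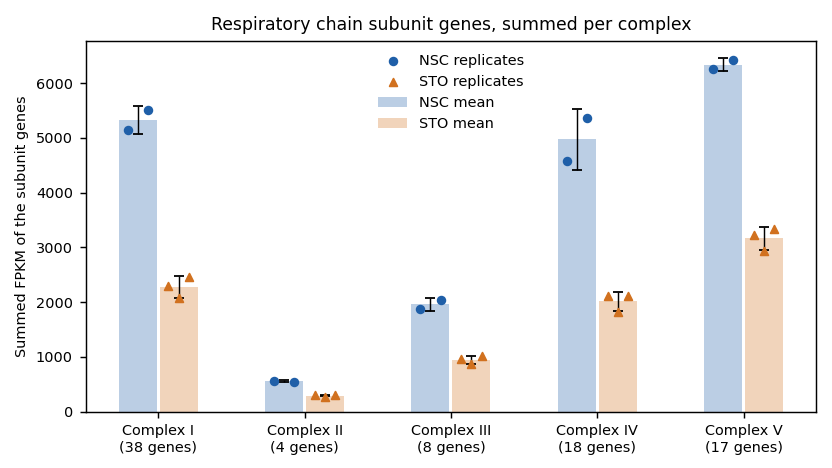
Summed FPKM of the subunit genes of each complex (vertical axis) in 2 NSC samples (circles) and 3 STO samples (triangles), with bars for means and error bars for SD. In each complex every NSC sample lies above every STO sample, with sums between 1.93-fold higher in NSCs for complex II and 2.47-fold for complex IV.

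By complex, 34 of 37 tested genes of complex I were higher in NSCs, 3 of 4 of complex II, all 8 of complex III, all 13 tested of complex IV and all 17 of complex V. The median log2 differences were 1.14, 0.98, 0.99, 1.25 and 1.00 in that order. The summed FPKM was 2.34-fold higher in NSCs for complex I, 1.93-fold for complex II, 2.07-fold for complex III, 2.47-fold for complex IV and 2.00-fold for complex V. The total FPKM of all genes was also higher in the NSC samples, at 442906 and 446393 against 396613, 385485 and 399970. As shares of that total the folds were 2.07, 1.71, 1.83, 2.19 and 1.77, in the order of complexes I to V. The shares of the complexes in the members' FPKM differed by small amounts, but for each complex they did not overlap between the groups. Complex V took 34.0% and 32.3% in NSCs and 36.2%, 36.8% and 36.2% in STO cells. Complex IV took 24.9% and 27.0% against 23.8%, 22.8% and 22.9%, and complex I 27.9% and 27.7% against 25.8%, 25.9% and 26.8%. The shares of complexes II and III were lower in NSCs. No test was made on these shares. Complex V was the largest part in all 5 samples.

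**Figure D2:**
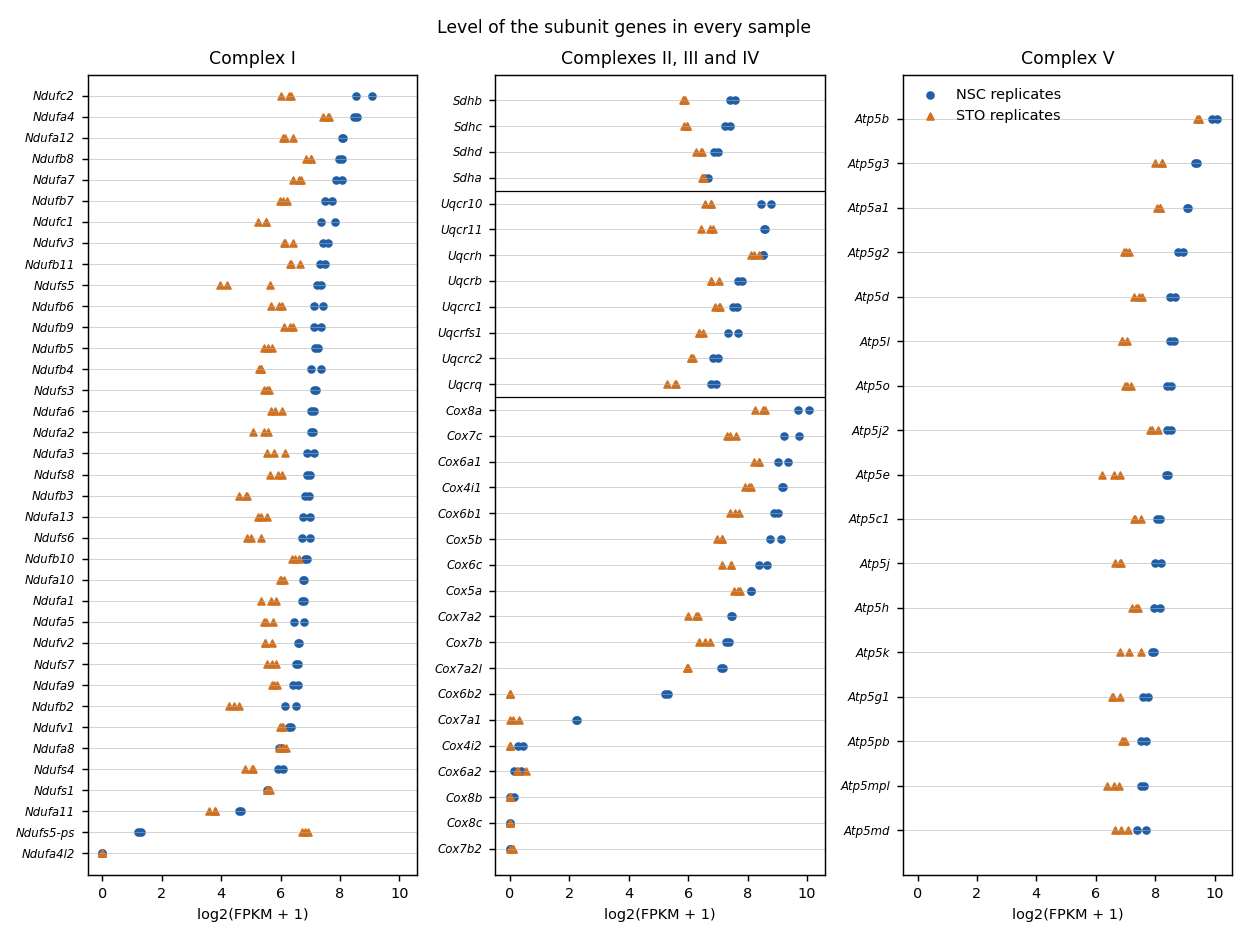
Level of 84 of the 85 genes on the log2(FPKM + 1) scale (horizontal axis) in each NSC sample (circles) and STO sample (triangles), by complex and ordered by the NSC mean. Circles lie to the right of triangles for the genes that were higher in NSCs, and the pseudogene Ndufs5-ps shows the opposite order.

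Complex I holds a core that carries the flavin, the iron-sulfur clusters and the quinone site, and accessory subunits around it. Of the 7 nuclear core genes, 6 were higher in NSCs with a median log2 difference over the 7 of 0.86. Of the 29 protein-coding accessory genes tested, 28 were higher with a median of 1.29. Core genes had longer transcripts, with a median of 1046 bases against 642.

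Among the core genes, Ndufs3, a subunit of the arm that leads to the quinone site, had the largest difference. It was at 146 and 139 FPKM in NSCs and at 48.2, 42.7 and 45.2 in STO cells (log2 difference 1.63 ± 0.068 SE, limma adjusted p = 1.44e-06). Ndufv1, which binds the flavin and takes up electrons from NADH, was at 79.6 and 77.7 FPKM against 65.5, 62.1 and 66.8 (log2 difference 0.28, limma adjusted p = 0.0034), and after the gene's length was allowed for the difference was 0.052 (limma adjusted p = 0.35). Ndufs1, the largest iron-sulfur subunit, overlapped between the groups, at 46.8 and 45.1 FPKM in NSCs and 45.3, 45.4 and 49.3 in STO cells (log2 difference -0.021 ± 0.060 SE, limma adjusted p = 0.75). With samples scaled to a common sum of FPKM, Ndufs1 was lower in NSCs (log2 difference -0.19, limma adjusted p = 0.016) and the difference of Ndufv1 did not pass (limma adjusted p = 0.083).

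Apart from Ndufs5, the largest differences among the accessory genes were those of Ndufc2, Ndufc1 and Ndufb3, all of the membrane arm. Ndufc2 was at 373 and 539 FPKM in NSCs and at 79.9, 64.0 and 75.9 in STO cells (log2 difference 2.60 ± 0.17 SE, limma adjusted p = 1.38e-05), and it was the most abundant complex I gene in NSCs. Ndufc1 was at 161 and 228 FPKM against 45.0, 36.4 and 44.7, a log2 difference of 2.17. Ndufb3 was at 112 and 124 FPKM against 27.4, 23.1 and 28.1, a log2 difference of 2.13. NSC replicate 2 was above replicate 1 for each of these genes, and both were above all STO samples. Ndufb4, whose promoter is shown above, was at 129 and 161 FPKM against 39.9, 37.2 and 39.5.

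Ndufa4, named as a complex I gene although its protein is now placed in complex IV, was the most abundant member of its symbol group in STO cells, at 191, 169 and 197 FPKM, and was at 353 and 380 in NSCs. Ndufb10 had the smallest difference among the accessory genes called, with 112 and 117 FPKM against 89.2, 82.1 and 97.5 (log2 difference 0.36, limma adjusted p = 0.0064). Without NSC replicate 1 its limma adjusted p was 0.055, without NSC replicate 2 it was 0.082, and with the length trend removed the difference was -0.034. Ndufa8, a subunit with cysteine pairs folded in the intermembrane space, did not separate the groups: 65.6 and 60.6 FPKM in NSCs lay within or just below the STO values of 66.1, 61.1 and 71.9 (log2 difference -0.070 ± 0.082 SE, limma adjusted p = 0.45), and with samples scaled to a common sum Ndufa8 was lower in NSCs (-0.24, limma adjusted p = 0.018). Ndufb11 was counted as higher, but its estimate in NSC replicate 1 carried a failed status in the table.

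Ndufs5 needs separate treatment, since the pseudogene Ndufs5-ps is nearly a copy of it. The pseudogene aligned with the spliced Ndufs5 transcript over 437 bases with 2 mismatches and no gap (99.5% identity). The 60 bases below hold both mismatches, in capitals, and the other letters are the same, read from the mm9 genome at chr4:123393218-123393277 (minus strand) for Ndufs5 and chr16:42955789-42955848 (plus strand) for the copy. They are shown because a read pair that lies wholly in the aligned stretch and misses both bases cannot be told apart by sequence.
Ndufs5: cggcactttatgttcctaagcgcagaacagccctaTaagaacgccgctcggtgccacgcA
Ndufs5-ps: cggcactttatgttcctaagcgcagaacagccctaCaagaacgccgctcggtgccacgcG
Ndufs5 was listed at 164 and 149 FPKM in NSCs and at 17.4, 14.5 and 49.3 in STO cells (log2 difference 2.69 ± 0.49 SE, limma adjusted p = 0.0020). The difference did not pass without NSC replicate 1 (limma adjusted p = 0.065) or without NSC replicate 2 (0.058). Ndufs5-ps showed the opposite order, at 1.27 and 1.45 FPKM in NSCs and at 120, 112 and 104 in STO cells, and was the only member lower in NSCs. STO replicate 3 was the highest of the STO samples for the gene and the lowest for the copy summed over its places given below. At the copy's own place on chromosome 16, STO replicate 3 was the highest, at 97.7 FPKM against 95.1 and 88.2.

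The pseudogene's row was split over 2 places in the tables. At its own place on chromosome 16 it was listed at 95.1, 88.2 and 97.7 FPKM in STO cells, and at the Ndufs5 gene on chromosome 4 at 24.7, 23.4 and 5.84. With gene and pseudogene summed as 1 gene, the level was 165 and 150 FPKM in NSCs and 137, 126 and 153 in STO cells. The summed values of the groups overlapped, and the log2 difference was 0.19 (limma adjusted p = 0.11), so neither the largest complex I difference nor the only lower member remained once the copies were summed. Whether reads were assigned to the right copy was not tested.

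**Figure D3:**
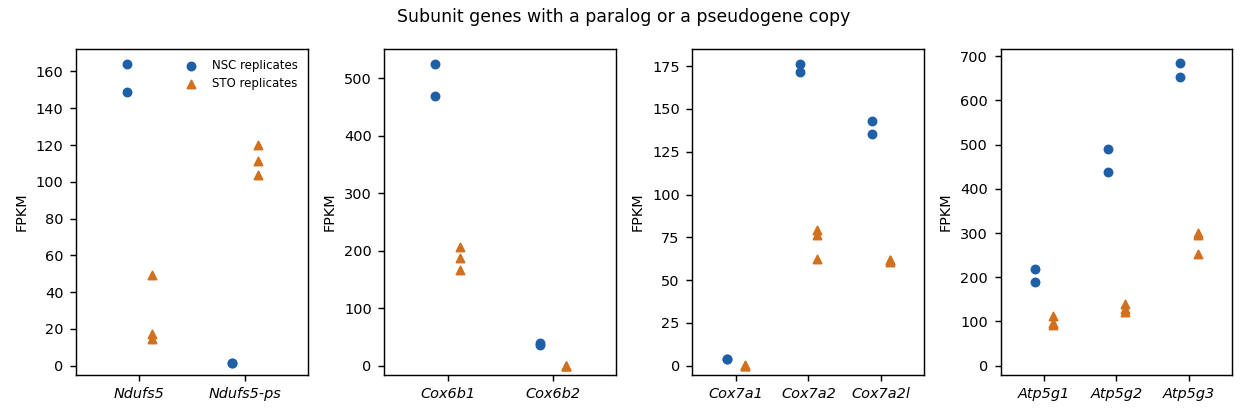
FPKM (vertical axis, each panel with its own scale) of genes with a pseudogene copy or with paralogs, in each NSC sample (circles) and STO sample (triangles). Ndufs5 and Ndufs5-ps show opposite orders, Cox6b2 is listed at 0 in all 3 STO samples, and all 3 Atp5g genes are higher in NSCs.

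Complex II, succinate dehydrogenase, is the only complex shared with the tricarboxylic acid cycle and has no subunit encoded in mitochondrial DNA. Sdhb, the iron-sulfur subunit, was at 169 and 190 FPKM in NSCs and at 57.4, 55.1 and 58.0 in STO cells (log2 difference 1.64 ± 0.067 SE, limma adjusted p = 1.35e-06). Sdhc, a membrane anchor, was at 170 and 152 FPKM against 61.9, 57.3 and 61.7, a log2 difference of 1.40. Sdhd, the other anchor, was at 129 and 117 FPKM against 87.0, 75.7 and 85.7, a log2 difference of 0.56. The catalytic flavoprotein Sdha was at 100 and 92.4 FPKM in NSCs and at 90.2, 88.0 and 92.5 in STO cells, overlapping by a small margin (log2 difference 0.092 ± 0.059 SE, limma adjusted p = 0.19; -0.081 with samples scaled to a common sum). The order of levels thus turned around: Sdha was the most abundant of the 4 in every STO sample and the least abundant in every NSC sample, on the FPKM scale, which is per transcript length.

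Complex III passes electrons from coenzyme Q to cytochrome c. The symbol rule leaves out Cyc1, the cytochrome c1 gene, so the nuclear core was not complete here. The 3 core genes within the rule had a median log2 difference of 0.81 and the other 5 a median of 1.38. Uqcr10 and Uqcr11, small subunits, had the largest differences: Uqcr10 was at 346 and 439 FPKM in NSCs against 109, 92.7 and 109 in STO cells, a log2 difference of 1.91. Uqcr11 was at 376 and 386 FPKM against 113, 85.7 and 106, also 1.91 (limma adjusted p = 1.07e-05). Uqcrfs1, the Rieske iron-sulfur protein, was at 161 and 205 FPKM against 89.2, 81.1 and 81.9, a log2 difference of 1.10. Among the core proteins that do not carry a redox centre, Uqcrc1 was at 183 and 198 FPKM against 133, 119 and 129 (log2 difference 0.58) and Uqcrc2 had a log2 difference of 0.81.

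Uqcrh, the hinge subunit that helps cytochrome c to bind, had the smallest difference called. It was the most abundant complex III gene in STO cells, at 300, 279 and 335 FPKM, and was at 363 and 364 in NSCs (log2 difference 0.26 ± 0.089 SE, limma adjusted p = 0.033). This call was lost under 8 of the 16 alternative settings, and with the trend on transcript length removed Uqcrh was lower in NSCs (log2 difference -0.23, limma adjusted p = 0.0091).

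Complex IV, cytochrome c oxidase, has subunits with tissue isoforms, so its genes were followed as sets. The most abundant was Cox8a, the common isoform of the smallest subunit, at 825 and 1074 FPKM in NSCs and at 379, 305 and 367 in STO cells (log2 difference 1.43, limma adjusted p = 0.00012). Cox7c, a further small subunit, was at 598 and 846 FPKM against 193, 157 and 168, a log2 difference of 2.04. Cox5b, on the matrix side, was at 428 and 552 FPKM against 140, 125 and 140, a log2 difference of 1.84. Cox5a, next to it in the complex, had the smallest difference of the 13 tested, with 275 and 278 FPKM against 202, 186 and 212 (log2 difference 0.47, limma adjusted p = 0.0010), and with the length trend removed this call was lost (0.11, limma adjusted p = 0.094). NSC replicate 2 was above replicate 1 for Cox8a, Cox7c and Cox5b, and the spread between the NSC replicates was larger for the complex IV sum (SD 549 of 4973 FPKM) than for the complex V sum (SD 115 of 6339 FPKM).

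Cox6b2 was listed above 0 only in NSCs. It encodes the isoform of subunit 6b known from testis, and it stood at 39.3 and 36.3 FPKM in NSCs and was listed at 0 in each STO sample. Some assembly factor genes in general use were listed at 0 in every sample, NSCs included, so a listed 0 need not mean a silent gene. It made up 6.97% and 7.17% of the summed Cox6b FPKM in NSCs. The common isoform Cox6b1 was at 524 and 470 FPKM against 188, 167 and 206, a log2 difference of 1.41. Without Cox6b2 the median log2 difference of complex IV was 1.21.

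Of the other isoform sets, those of heart and skeletal muscle were low. Cox7a1, the heart and muscle form of subunit 7a, was at 3.82 and 3.65 FPKM in NSCs and at 0.242, 0 and 0.0795 in STO cells (log2 difference 2.10 ± 0.094 SE on the log2(FPKM + 1) scale, limma adjusted p = 2.02e-06; 4.39 with a pseudocount of 0.1), yet it was 1.18% of the set in NSCs. The common Cox7a2 was at 176 and 171 FPKM against 76.4, 62.2 and 79.2. Cox7a2l, a related protein that links complexes III and IV, was at 143 and 135 FPKM against 62.0, 60.5 and 61.6. The share of Cox7a2 in the set was 54.5% and 55.3% in NSCs and 55.1%, 50.7% and 56.2% in STO cells, so the mix of these 2 overlapped between the cell types.

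The 6 members below the filter were Cox4i2, Cox6a2, Cox7b2, Cox8b, Cox8c and Ndufa4l2, mostly isoforms known from lung, muscle or testis. Cox4i2, the isoform of subunit 4 known from lung and from hypoxia, was at 0.219 and 0.359 FPKM in NSCs and listed at 0 in STO cells, while Cox4i1 was at 574 and 579 against 278, 241 and 263. Cox6a2, the muscle form of subunit 6a, was between 0.0965 and 0.441 FPKM over the 5 samples, and Cox6a1 between 295 and 652. Cox7b2 was at most 0.0816 FPKM and Cox8b at most 0.0876. Cox8c and Ndufa4l2 were listed at 0 in all samples. Levels this low cannot be ordered between the cell types.

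**Figure D4:**
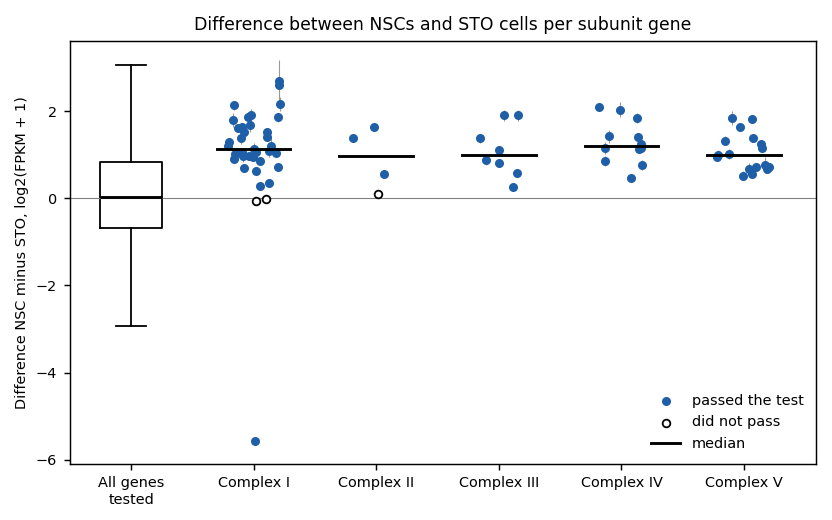
Difference NSC minus STO on the log2(FPKM + 1) scale with SE (vertical axis) for each member tested, by complex, with the median as a line and a box for the quartiles of all genes tested. Cox6b2 is left out because it is listed at 0 in STO cells. The lines of all 5 complexes lie above the median of all genes (0.023), open circles mark the 3 genes that did not pass, and the lone low point is Ndufs5-ps.

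Complex V is made of the F1 head, where ATP is formed, and the part in and along the membrane. The F1 head genes had a median log2 difference of 0.96 (5 of 5 higher) and the other 12 a median of 1.01 (12 of 12 higher). Atp5b, the catalytic beta subunit, was the most abundant of all members in the means of both cell types, at 968 and 1080 FPKM in NSCs and at 704, 678 and 704 in STO cells (log2 difference 0.56 ± 0.078 SE, limma adjusted p = 0.00062). With quantile normalization this difference did not pass (0.16, limma adjusted p = 0.091). Its partner Atp5a1 was at 548 and 541 FPKM against 285, 269 and 285 (log2 difference 0.96, and 0.62 with quantile normalization). The smallest head subunit, Atp5e, had the largest difference in the complex, at 329 and 344 FPKM against 113, 73.9 and 96.6 (log2 difference 1.84, limma adjusted p = 6.91e-05). The lowest difference was that of Atp5j2, a membrane subunit, at 333 and 368 FPKM against 235, 226 and 274 (log2 difference 0.52, limma adjusted p = 0.0029). This call was lost without NSC replicate 2 (0.45, limma adjusted p = 0.059) and with the length trend removed (0.078, limma adjusted p = 0.35).

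The c ring that turns with proton flow is built from 1 mature protein made by 3 genes, which differ in the import sequence that is cut off. Atp5g2 was at 491 and 437 FPKM in NSCs and at 140, 128 and 122 in STO cells (log2 difference 1.83 ± 0.085 SE, limma adjusted p = 2.45e-06). Atp5g3 was at 686 and 654 FPKM against 300, 252 and 297, a log2 difference of 1.24. Atp5g1 was at 190 and 218 FPKM against 113, 95.5 and 91.8, a log2 difference of 1.02. The mix differed: Atp5g2 made up 35.9% and 33.4% of the set in NSCs and 25.3%, 26.9% and 23.9% in STO cells, without overlap, while Atp5g3 was the most abundant of the 3 in every sample. The shares are given as a description, with no test.

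Transcript length moved with these differences. The tested members had a median length of 680.5 bases (78 of 79 with a length in GENCODE), against 2366 over all genes tested, and short genes outside the list had medians above 0 as well. Genes of other kinds under 600 bases had a median log2 difference of 0.40, those of 600 to 1000 bases 0.29, and those of 1000 to 2000 bases 0.11. Members in the same ranges had medians of 1.38, 1.20 and 0.77. With each sample's trend on length removed, 69 of 78 members were higher in NSCs and 2 lower, with a median log2 difference of 0.89. Ndufa4 then had a difference of 0.51, against 0.98 before, and Atp5g1 of 0.67, against 1.02.

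**Figure D5:**
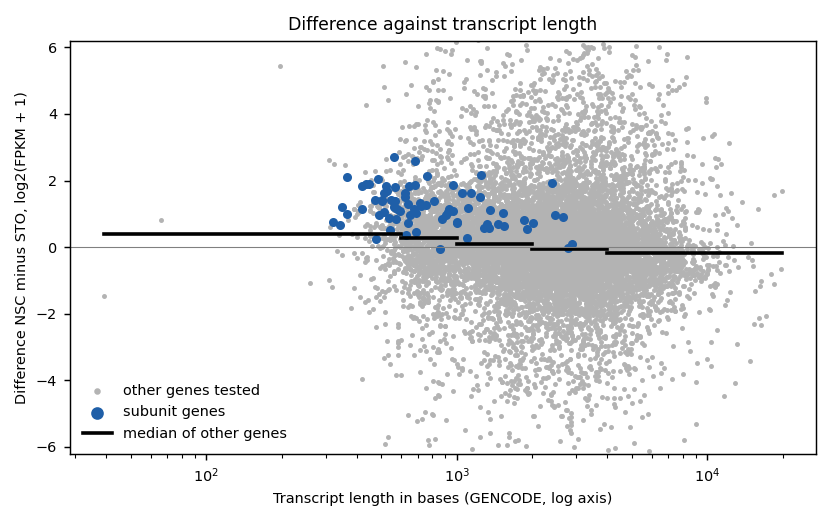
Difference NSC minus STO on the log2(FPKM + 1) scale (vertical axis) against transcript length in bases (horizontal log axis) for the members (filled circles) and the other genes tested (grey), with the other genes' median in each range of length as a line. The lines fall from 0.40 under 600 bases to -0.17 above 4000, and most members lie above the line at their length; 96 other genes lie outside the axis and Cox6b2 is left out.

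Ribosomal protein genes gave a further comparison. The cytoplasmic ones are short and abundant as well, with a median length of 727.5 bases. The mitochondrial ones are longer (median 1102 bases) and less abundant, so they are not matched to the members. Of 80 cytoplasmic ribosomal protein genes tested, 49 were higher in NSCs and 16 lower (limma), with a median log2 difference of 0.52. Of 77 mitochondrial ribosomal protein genes, 56 were higher and 5 lower, with a median of 0.49. The shares higher were 61.3% and 72.7% for these lists, against 43.7% higher and 41.9% lower over all genes tested. The median over the respiratory chain genes was 1.14 on the same scale, and whether the lists differ was not tested.

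Genes that act with the respiratory chain were followed in lists. Of 15 electron carriers, coenzyme Q enzymes and related subunits outside the symbol rule, 11 (73.3%) were higher in NSCs and 2 lower (limma). Over all genes tested the shares were 43.7% higher and 41.9% lower. Cycs, the cytochrome c that shuttles between complexes III and IV, was at 70.4 and 94.4 FPKM in NSCs and at 22.5, 21.9 and 21.1 in STO cells, a log2 difference of 1.85. Atpif1, the protein inhibitor of ATP synthase, was at 117 and 134 FPKM against 28.6, 26.0 and 32.6, a log2 difference of 2.08. Pdss1, which starts the coenzyme Q side chain, was at 7.94 and 8.86 FPKM in NSCs and was listed at 0 in STO cells. Etfa, which brings electrons from fatty acid oxidation, was lower in NSCs with a log2 difference of -0.40, as did the coenzyme Q enzyme Coq5 with -0.38.

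Assembly factors help to build the complexes and are not part of them. Of 48 tested, 34 (70.8%) were higher in NSCs and 6 lower (limma), with a median log2 difference of 0.74. Over all genes tested, 43.7% were higher and 41.9% lower. Lyrm7, a complex III assembly factor, was at 6.16 and 6.71 FPKM in NSCs and at 0.447, 0.497 and 0.387 in STO cells, a log2 difference of 2.36. Cox17, the copper chaperone of complex IV, was at 84.3 and 111 FPKM against 23.4, 21.5 and 25.3, a log2 difference of 2.01. The largest differences in the other direction were those of Sdhaf2, which attaches flavin to Sdha, at -0.69, and of Atpaf1, a chaperone of the F1 head, at -0.68. Ttc19, Cox20, Sco2 and Pet117 were listed at 0 in all 5 samples, Surf1 in all but NSC replicate 1 and Cox16 in STO replicate 2, so a value of 0 in these tables need not mean that a gene was silent.

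The regulators are factors of mitochondrial biogenesis or of mitochondrial DNA, and whether they set the levels of the subunit genes was not tested. Of 23 genes for mitochondrial biogenesis and for expression of mitochondrial DNA, 8 (34.8%) were higher in NSCs and 12 lower (limma), against 43.7% higher and 41.9% lower among all genes tested, with a median log2 difference of -0.20. Hif1a, the oxygen-sensitive factor known to favour glycolysis, was at 30.7 and 34.3 FPKM in NSCs and at 124, 139 and 130 in STO cells (log2 difference -1.98 ± 0.077 SE, limma adjusted p = 1.05e-06). Epas1, its relative, was at 12.2 and 13.2 FPKM against 4.08, 3.96 and 4.09, a log2 difference of 1.44. The coactivator Pprc1 had a difference of -0.77, and Ppargc1a, known as a master coactivator of mitochondrial biogenesis, was at 3.33 and 3.30 FPKM against 5.83, 6.92 and 5.95. Nrf1, whose motif is marked in the promoters above, was at 13.5 and 13.7 FPKM in NSCs and at 12.9, 13.7 and 14.7 in STO cells, overlapping (limma adjusted p = 0.86). Tfam, which packs mitochondrial DNA, had a log2 difference of -0.38, and Polg, its polymerase, of 1.47.

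The lists for other mitochondrial functions had medians between 0.37 and 0.56. For comparison with the counts below, 43.7% of all genes tested were higher and 41.9% lower. In the tricarboxylic acid cycle, 8 of 13 genes (61.5%) were higher in NSCs and 1 lower (limma), with a median log2 difference of 0.56. Idh3b, a subunit of isocitrate dehydrogenase, was at 102 and 108 FPKM in NSCs and at 57.7, 53.1 and 61.9 in STO cells, a log2 difference of 0.85. The single gene that was lower, Dld, had a difference of -0.21 (limma adjusted p = 0.033). The Dld call was lost with median-of-ratios scaling (limma adjusted p = 0.077), with the replicate block, which drops STO replicate 3 (0.12), and without NSC replicate 1 (0.060), NSC replicate 2 (0.20), STO replicate 2 (0.070) or STO replicate 3 (0.090). Of 20 genes for the outer membrane, protein import and cristae, 13 (65.0%) were higher and 4 lower (limma), with a median of 0.37. Mitochondrial mass was not measured. Tomm20 had the largest difference (1.09), next to the outer membrane channel Vdac1 (1.06). The chaperone Hspd1 was at 231 and 210 FPKM against 305, 320 and 332, a log2 difference of -0.53, and the phosphate carrier Slc25a3 had a difference of -0.28, which did not pass without NSC replicate 2 (limma adjusted p = 0.057).

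Reads from neighbours could touch some values. Of the 84 protein-coding members, 17 shared exon bases with another gene on the opposite strand, and for 1 of them, Ndufb2, another gene overlapped on the same strand as well. Among the genes described above these were Ndufs1, Ndufs3, Ndufb11, Ndufa4l2, Uqcrc2, Cox5a and Cox6a2. The libraries were made with a stranded kit, but whether strand was used in quantification was not stated. Processed pseudogenes of other subunit genes that had no row in the tables were not analysed here.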

How the data were processed

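RNA-seq was measured in 2 NSC and 3 STO samples with a stranded mRNA kit. Per the methods of the study and the submitters' processing notes, the authors trimmed paired reads, aligned them to mm9 with HISAT2 (version given as 4.8.2) and computed FPKM per RefSeq transcript with Cufflinks 2.2.1. The deposited FPKM tables held 40201 rows each, with interval bounds and a status, and no counts. From the Cufflinks intervals, read as 2 SD, a tested member had a median of 1828 fragments over samples (1162 to 3207 for the median of a sample), an estimate of counting error only.

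RefSeq accessions were matched to symbols for 99.4% of rows, and FPKM were summed per symbol. limma 3.58.1 (R 4.3.3, eBayes with a mean-variance trend) was run on log2(FPKM + 1) for the 12277 symbols with a mean of at least 1 FPKM in either group, with Benjamini-Hochberg adjustment at 0.05. A fold change on this scale understates the change of low genes. On simulated data with 200 genes changed by 1 on the log2 scale among 12277, the fit called all 200 and 7 others. The simulated noise was independent between samples, with a variance set by level alone, and far fewer genes changed than were called here. This run therefore checks the code and does not give the error rate of the calls. With 2 and 3 samples, SDs are rough. The members, lists, markers and motifs were chosen with earlier results of these data known. Named were, per complex, the largest differences in each direction, all of complex II and the isoform sets, the most abundant gene and those not called, and 2 genes per direction of each list; a few partner genes and regulators (Ndufb4, Uqcrfs1, Uqcrc1, Uqcrc2, Cox5b, Atp5a1, Cycs, Ppargc1a, Nrf1, Tfam) were added for their roles after their values were seen. A few genes that the rule or the lists name are not reported here. Sequences came from RefSeq promoters (GRCm38.p6) and the mm9 genome, and transcript lengths from GENCODE vM1. No batch was given in the labels. Alternatives were another pseudocount, filter, scaling and variance model, separate loci, a replicate block and each sample left out, and, chosen after seeing the data, a length trend and the summed Ndufs5 copies. Chromatin data of the study were not used here.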

Additional observations from a re-analysis of the deposited data

How the results depend on the processing

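Of the 75 members higher in NSCs, 66 kept the call under every one of the 16 alternatives in which they were tested and 73 kept the direction; Cox7a1 was below the filter of 10 FPKM and was not tested there. The exceptions to the call were Atp5b, Atp5j2, Atp5k, Atp5md, Cox5a, Ndufb10, Ndufs5, Ndufv1 and Uqcrh. Leaving out each sample in turn gave 70 to 75 members higher. Scaling each sample to a common sum of FPKM (TPM) gave 73 higher and 3 lower, with Ndufa8 and Ndufs1 now called lower, and medians of 0.98 for all members and for complex I, 0.81 for II, 0.82 for III and 0.83 for V; the median of all genes then moved from 0.023 to -0.14. Quantile normalization gave medians of 0.98 for all members, 0.85 for complex II, 1.06 for IV and 0.86 for V. With the length trend removed, 2 members were lower, and the medians were 0.89 for all members, 0.87 for complex I, 0.74 for II, 0.94 for IV and 0.67 for V. With Ndufs5 and Ndufs5-ps summed, 0 members were lower by limma (0 at an unadjusted p under 0.05).

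Some values near 0 changed sign. Sdha was -0.081 with TPM scaling and -0.047 with quantile normalization. Ndufs1 was 0.020 with median-of-ratios scaling, 0.019 with the block, -0.048 to 0.019 with a sample left out, and 0.054 with the length trend removed. With that trend removed, Ndufb10 was -0.034 and Uqcrh -0.23. Tricarboxylic acid cycle genes lower in NSCs numbered 4 with TPM scaling, 3 with quantile normalization or the length trend removed, 0 with median-of-ratios scaling or the block, and 0 to 1 with a sample left out; where limma gave 0, the count at an unadjusted p under 0.05 was 0, or 1 without NSC replicate 1. Genes of the outer membrane, import and cristae list that were lower numbered 2 to 4 with a sample left out. The cause of these shifts was not tested.

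A replicate block on the shared numbers 1 and 2, which leaves STO replicate 3 without a partner and so drops it, gave 75 members higher and 1 lower, with a median of 1.17. Deviations of same-numbered samples correlated at 0.0029 and 0.065, so the numbers were not shown to pair the samples. Depth limits the low isoforms: Cox4i2 and the other members below 1 FPKM cannot be ordered.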
